A study of Mus musculus with 9 samples.

Results

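The genes described here encode the proteins of the cytosolic ribosome in mouse embryonic stem cells. They were taken from the deposited expression table as the features paired with a single gene symbol that read Rpl, Rps or Rplp followed by digits and at most 1 final letter a or x, and for a gene with several such features the one with the highest mean was used. The rule found 52 genes of the 19938 that were tested, 19 of the small subunit and 33 of the large subunit, and it used no difference between groups. A further 23 reference genes with symbols of the same form, among them Rpl3, Rpl11, Rpl32, Rps24 and Rps27a, had no feature that the rule could use and were not analysed here, and 16 of them were named only on features shared by several symbols. Gene expression was measured with an Affymetrix whole-transcript array and biotin-labelled sense target, as log2 values made with the RMA method. Null Eα cells had both β-catenin alleles deleted and stably expressed a construct that fuses E-cadherin to α-catenin, and there were 3 arrays of them. Null cells, with both alleles of β-catenin deleted and no construct, and flox cells, the control cells, with 1 allele deleted and the other floxed, were on 3 arrays each. All 3 groups thus carried a deletion of at least 1 β-catenin allele. They shared a mixed S129S6-C57BL/6 background and were grown on gelatin in serum with LIF, the cytokine that keeps mouse embryonic stem cells undifferentiated, until sub-confluence. The replicates are called biological in the labels, which do not say whether they were separate lines, so a difference between groups could also be one between lines. β-catenin joins E-cadherin to α-catenin at cell contacts and carries Wnt signals to the nucleus, and the fusion protein makes the first of those links without it.

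The ribosome reads messenger RNA with its small subunit and joins amino acids with its large subunit. In general its proteins are made in matched amounts, and copies that are not built into a subunit are degraded. In mammals most of their messenger RNAs begin with a run of pyrimidines at the 5′ end, the TOP tract, through which the kinase mTOR and the protein Larp1 control their translation as a group. Their genes are transcribed at high rates in growing cells, and Myc proteins are among the factors known to raise that transcription. Many of the messenger RNAs have left processed copies elsewhere in the mouse genome that are close to them in sequence, so an array feature named for a ribosomal protein gene can also take signal from such copies. Values for individual members are uncertain to that extent.

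The data of the whole series set the scale for these genes. All levels are log2 values on single arrays and all differences are log2 differences between group means. Ctnnb1, which encodes β-catenin, had 10.23, 10.13 and 10.32 in null Eα cells, 10.54, 10.50 and 10.47 in null cells and 11.13, 11.13 and 11.21 in flox cells. Its feature differed from flox by -0.93 in null Eα and by -0.65 in null cells and was called lower in both, but probes outside the deleted exons would not test the deletion. The spread of values over all features, as an interquartile range, was 3.21 to 3.37 in null Eα, 3.41 to 3.46 in null and 3.75 to 3.84 in flox cells. The 10 embryonic stem cell markers, all measured, had a mean log2 level of 10.4 to 10.6 in null Eα, 8.35 to 8.67 in null and 10.7 to 10.8 in flox cells. Against flox, 9 of the 10 were called lower in null cells, 8 of them at least 2-fold, and 1 was called higher. In null Eα cells 6 were called lower and 4 were not called. Of all genes 28.7% were called lower in null and 31.6% in null Eα cells. For 13 of 14 fibroblast markers the summed log2 level was 95.6 to 99.6 in null Eα, 102 to 112 in null and 70.1 to 72.1 in flox cells, and 11 of the 13 were called higher than in flox cells in each of the other groups. RMA values have no 0, so no marker could be read as absent. These differences run between the same groups as those of the ribosomal protein genes, and their part in the results was not tested. In bulk RNA, fewer cells of a type and less RNA per cell cannot be told apart.

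Ribosomal protein genes differed between the lines one by one and in both directions. Against flox cells, 18 of the 52 members rose in null cells and 21 fell, while 13 were not called at an adjusted p under 0.05. That is 75% of the members, beside 55.2% of all genes called, with 26.5% of all genes called higher and 28.7% called lower. In null Eα cells 23 members rose and 21 fell against the same flox arrays, and 8 were not called. The share was 84.6%, beside 63.7% of all genes, with 32.1% of all genes called higher and 31.6% lower. The members belong to the bright end of the array, where more genes were called: of the 302 other genes with a mean of at least 11, 71.9% were called in null Eα and 73.8% in null cells, and of the 37 members at that level 86.5% and 78.4%. The members' share in null cells was thus close to that of genes of like brightness. Centring each chromosome on its brighter genes, those with a mean above the median of all genes, gave 31 higher and 11 lower members in null Eα cells in place of 23 and 21, and that scaling moved the median of all genes to 0.31 for null Eα and 0.21 for null cells.

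Members above and below 0 were nearly equal in number. The members' mean level was still lower on the null arrays, at 11.28 to 11.34, than on the flox arrays, at 11.39 to 11.43. The median difference of the members was 0.010 in null cells, with 26 members above 0 and 26 below, and 0.045 in null Eα cells, with 27 above and 25 below. Over all genes the medians were 0.058 and 0.069, over the 9969 genes with the higher means -0.16 and -0.29, and over the other genes at a mean of 11 or more 0.013 and -0.089. The members' differences ran from -1.22 to 1.35 in null and from -1.05 to 1.42 in null Eα cells. The sizes were mostly modest, with a median absolute difference of 0.38 in both, against 0.32 over all genes in null and 0.37 in null Eα cells. Only Rpl30 rose and Rpl37a, Rps15 and Rpl34 fell at least 2-fold in null cells, beside 5.03% and 10.2% of all genes. In null Eα cells Rpl30 and Rps21 rose and Rpl34 and Rpl27 fell at least 2-fold, beside 2.22% and 9.75% of all genes. The 3 arrays did not overlap those of flox cells for 43 members in null and 46 members in null Eα cells, beside 67.4% and 69.5% of all genes. Both sets of differences use the same 3 flox arrays, and each is therefore given side by side and not as a repeat of the other.

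**Figure D1:**
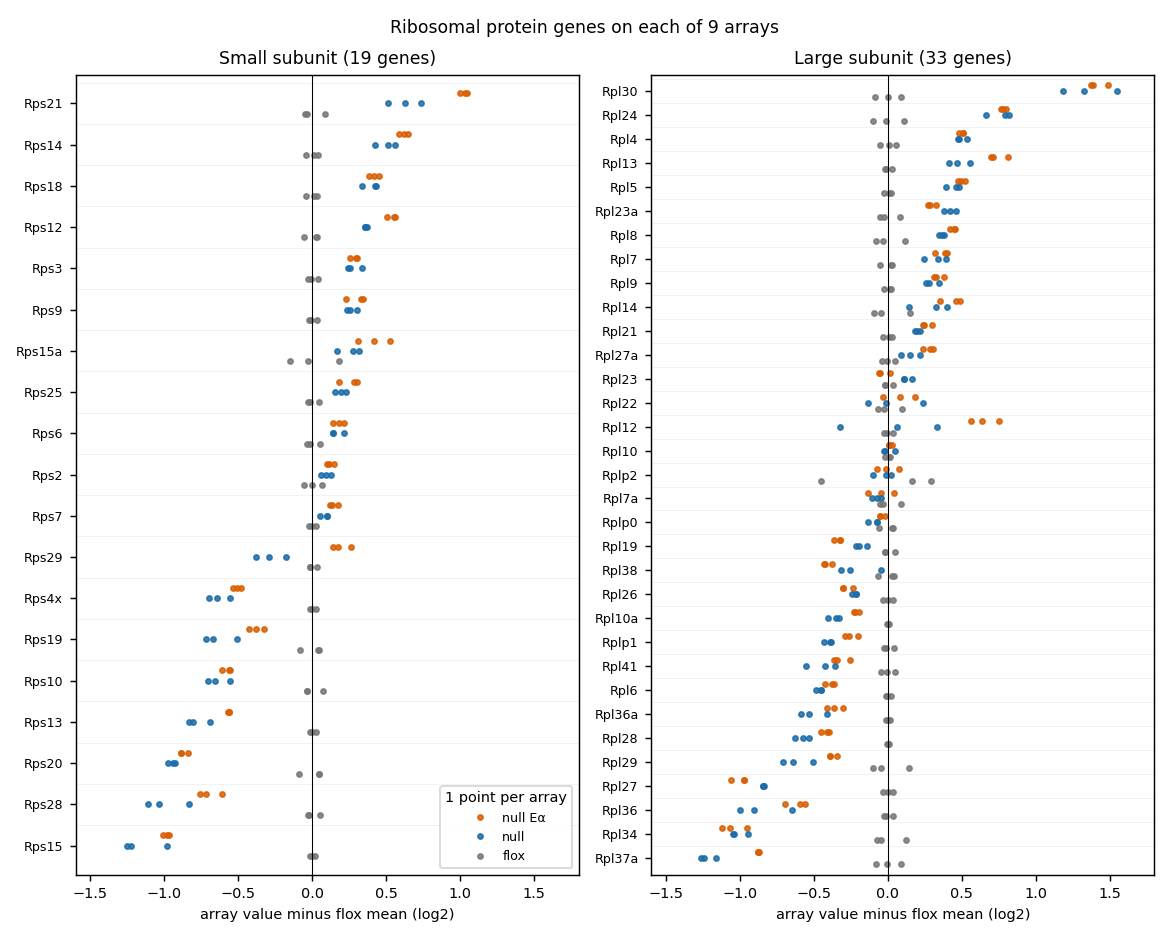
Each row is a ribosomal protein gene and each point 1 array, plotted as its log2 value minus the mean of the 3 flox arrays, for the 19 small subunit and the 33 large subunit genes. Most null Eα and null points spread on both sides of 0, around which the flox points lie, the flox points of Rplp2 widest, with Rpl30 farthest to the right and Rpl37a, Rps15 and Rpl34 farthest to the left.

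In the small subunit, which binds messenger RNA and checks the match of codon and anticodon, 10 of 19 members rose and 7 fell in null Eα cells, and 7 rose and 8 fell in null cells. The shares of all genes were 32.1% higher and 31.6% lower in null Eα cells and 26.5% and 28.7% in null cells. Rps15, whose tail reaches toward the decoding centre, had 11.24, 11.21 and 11.26 in null Eα cells, 10.97, 10.996 and 11.24 in null cells and 12.24, 12.22 and 12.21 in flox cells. All 6 arrays of the cells without β-catenin were below all flox arrays. Rps15 fell in both, at -0.99 ± 0.081 (adjusted p = 3.58e-06) in null Eα and -1.15 ± 0.081 (adjusted p = 8.81e-07) in null cells, which left 50.4% and 44.9% of the flox signal. Rps28, a small protein near the path by which messenger RNA leaves the subunit, had 10.56, 10.60 and 10.71 in null Eα cells, 10.28, 10.21 and 10.48 in null cells and 11.30, 11.29 and 11.37 in flox cells. The 3 groups did not overlap, with null lowest and flox highest, and the differences from flox were -0.99 ± 0.085 (adjusted p = 3.73e-06) in null and -0.70 ± 0.085 (adjusted p = 6.12e-05) in null Eα cells. Rps20, a protein of the subunit's head whose gene also hosts a small nucleolar RNA, had 11.83, 11.83 and 11.88 in null Eα cells, 11.74, 11.77 and 11.78 in null cells and 12.62, 12.76 and 12.76 in flox cells. Its levels fell, at -0.95 in null and at -0.87 in null Eα cells, without overlap with flox cells. Rps19, the gene most often mutated in Diamond-Blackfan anaemia in humans, had 9.29, 9.39 and 9.34 in null Eα cells, 8.99, 9.04 and 9.21 in null cells and 9.76, 9.76 and 9.64 in flox cells. Here too the null arrays were lowest and the null Eα arrays lay between them and flox, with differences of -0.63 ± 0.079 (adjusted p = 6.01e-05) in null and -0.38 ± 0.079 (adjusted p = 0.00213) in null Eα cells. The Rps19 call in null Eα cells was lost under quantile normalization, at -0.089. The other small subunit genes called lower in null cells were Rps13, Rps10, Rps4x and Rps29, at -0.78, -0.64, -0.63 and -0.28.

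Among the small subunit genes that rose, Rps21 had the largest difference. Its values were 10.999, 10.96 and 11.01 in null Eα cells, 10.59, 10.48 and 10.70 in null cells and 9.93, 9.92 and 10.05 in flox cells. The null Eα arrays were highest, the null arrays between and the flox arrays lowest. Rps21, needed in yeast for the maturation of the small subunit's RNA, rose by 0.62 ± 0.078 (adjusted p = 6.21e-05) in null and by 1.03 ± 0.078 (adjusted p = 2.13e-06) in null Eα cells, the second a 2.04-fold change. Rps14, whose loss of 1 copy underlies the anaemia of the human 5q- syndrome, had 11.62, 11.66 and 11.68 in null Eα cells, 11.46, 11.55 and 11.59 in null cells and 11.07, 10.99 and 11.04 in flox cells. Both lines without β-catenin were above flox cells on every array, by 0.50 ± 0.068 (adjusted p = 1.17e-04) in null and 0.62 ± 0.068 (adjusted p = 2.88e-05) in null Eα cells. Rps18, Rps12, Rps3, Rps9 and Rps25 also rose in null cells, by 0.19 to 0.40, and in null Eα cells, by 0.25 to 0.54. Rps3 and Rps9 lie at the entry of the messenger RNA channel. Rps15a was called higher in null Eα cells, at 0.42, and was not called in null cells, at 0.25. Rps2 and Rps7 were called in neither line, Rps2 at 0.12 in null Eα and 0.092 in null cells and Rps7 at 0.14 and 0.083.

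In the large subunit, which carries the peptidyl transferase centre and the exit tunnel for the new chain, 13 of 33 members rose and 14 fell in null Eα cells, and 11 rose and 13 fell in null cells. The shares of all genes were again 32.1% higher and 31.6% lower in null Eα cells and 26.5% and 28.7% in null cells. Rpl37a, a small zinc-binding protein, had 11.02, 11.02 and 11.02 in null Eα cells, 10.65, 10.73 and 10.63 in null cells and 11.98, 11.82 and 11.89 in flox cells. Null arrays were lowest and flox arrays highest, with no overlap among the 3 groups. The differences were -1.22 ± 0.070 (adjusted p = 2.13e-07) in null and -0.87 ± 0.070 (adjusted p = 3.06e-06) in null Eα cells, or 42.8% and 54.6% of the flox signal. Rpl34 had 9.28, 9.22 and 9.39 in null Eα cells, 9.30, 9.40 and 9.30 in null cells and 10.30, 10.27 and 10.47 in flox cells. It fell, at -1.01 in null and at -1.05 in null Eα cells, and the null Eα and null arrays overlapped each other. Rpl27, mutated in some human Diamond-Blackfan families, had 11.21, 11.13 and 11.21 in null Eα cells, 11.34, 11.35 and 11.34 in null cells and 12.15, 12.22 and 12.19 in flox cells. Its differences were -0.84 ± 0.064 (adjusted p = 1.58e-06) in null and -1.002 ± 0.064 (adjusted p = 6.65e-07) in null Eα cells, so that Rpl27 was lowest in null Eα cells. The remaining large subunit falls in null cells were those of Rpl36, Rpl29, Rpl28, Rpl36a, Rpl6, Rpl41, Rplp1, Rpl10a, Rpl26 and Rpl19, from -0.85 for Rpl36 to -0.19 for Rpl19. All 10 were also called lower in null Eα cells, from -0.62 for Rpl36 to -0.22 for Rpl10a. Rpl38, which in mice is needed for the translation of some Hox messenger RNAs, was called lower in null Eα cells at -0.41 and was not called in null cells at -0.21.

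Rpl30 rose more than any other member. This protein, which in yeast holds back the splicing of its own transcript, had 10.24, 10.36 and 10.26 in null Eα cells, 10.42, 10.19 and 10.05 in null cells and 8.78, 8.96 and 8.87 in flox cells. Every null Eα and null array was above every flox array, by 1.35 ± 0.098 (adjusted p = 1.10e-06) or 2.55-fold in null and 1.42 ± 0.098 (adjusted p = 1.08e-06) or 2.67-fold in null Eα cells. Rpl24, which forms a bridge to the small subunit and joins late in assembly, had 11.76, 11.75 and 11.78 in null Eα cells, 11.65, 11.78 and 11.81 in null cells and 10.98, 10.89 and 11.10 in flox cells. The null Eα and null arrays overlapped each other and lay above all flox arrays, with rises of 0.78 in null Eα and 0.76 in null cells. Rpl4, which lines the exit tunnel, had 12.48, 12.50 and 12.51 in null Eα cells, 12.48, 12.53 and 12.47 in null cells and 11.94, 12.05 and 12.002 in flox cells. It rose by 0.50 in null Eα and by 0.50 in null cells. Rpl13 had 11.71, 11.72 and 11.82 in null Eα cells, 11.42, 11.47 and 11.56 in null cells and 11.04, 10.99 and 10.998 in flox cells. The 3 groups were in the order null Eα, null and flox from high to low without overlap, and the rises were 0.48 ± 0.071 (adjusted p = 2.10e-04) in null and 0.74 ± 0.071 (adjusted p = 1.04e-05) in null Eα cells. Rpl5, which with Rpl11 and the 5S RNA forms a particle that can bind and inhibit Mdm2, rose by 0.44 ± 0.064 (adjusted p = 1.82e-04) in null and by 0.50 ± 0.064 (adjusted p = 8.64e-05) in null Eα cells. Rpl23a, Rpl8, Rpl7, Rpl9, Rpl14 and Rpl21 also rose in null cells, by 0.20 to 0.42, and in null Eα cells, by 0.26 to 0.44. Rpl27a was called higher in null Eα cells at 0.28 and not called in null cells at 0.15.

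The stalk of the large subunit, which recruits the elongation factors, is formed by Rplp0 with pairs of Rplp1 and Rplp2 and stands on a base that includes Rpl12. Rplp0, widely used as a constant control gene, had 12.84, 12.81 and 12.81 in null Eα cells, 12.79, 12.73 and 12.79 in null cells and 12.90, 12.89 and 12.80 in flox cells. Its null arrays were just below the flox arrays and its null Eα arrays overlapped them, and neither difference passed the test, at -0.042 ± 0.065 (adjusted p = 0.581) in null Eα and -0.094 ± 0.065 (adjusted p = 0.243) in null cells. A trended and robust prior called it lower in null cells, with the same difference, and over the alternatives its adjusted p in null cells was 0.0398 to 0.493 and its difference -0.16 to 0.090. Rplp2 was not called either, at -0.0029 in null Eα and -0.030 in null cells, and its flox arrays ranged from 7.07 to 7.81. Rplp1 was called lower in both, at -0.25 and -0.40. Rpl12 had 9.75, 9.94 and 9.83 in null Eα cells, 9.53, 8.87 and 9.26 in null cells and 9.19, 9.23 and 9.17 in flox cells. The null arrays were spread and overlapped flox, while all 3 null Eα arrays were above all flox arrays. Rpl12 differed from flox by 0.65 ± 0.14 (adjusted p = 0.00255) in null Eα and by 0.022 ± 0.14 (adjusted p = 0.904) in null cells. When features shared by several symbols were admitted, another feature stood for Rpl12, and its difference from flox in null Eα cells was -0.46.

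The differences of Rpl22, Rpl10, Rpl7a and Rpl23 did not pass the test in either line, which does not show that their levels were equal. Rpl22, a large subunit protein that mice can live without but that their αβ T cells need, had 10.14, 10.03 and 10.24 in null Eα cells, 10.05, 9.93 and 10.29 in null cells and 10.03, 10.16 and 9.99 in flox cells. The arrays of all groups overlapped, with differences of 0.076 ± 0.10 (adjusted p = 0.534) in null Eα and 0.029 ± 0.10 (adjusted p = 0.825) in null cells, but quantile normalization gave a called rise of 0.34 in null Eα cells. Rpl10, which completes the large subunit late in the cytoplasm, was at 0.014 and -0.0014, and Rpl7a was at -0.047 and -0.075. Rpl23, which can also bind Mdm2, was at -0.036 and 0.13. Rps6, the subunit protein that S6 kinases phosphorylate downstream of mTOR, had 12.82, 12.79 and 12.75 in null Eα cells, 12.75, 12.83 and 12.75 in null cells and 12.60, 12.57 and 12.66 in flox cells. It was called higher in null Eα cells, at 0.18 ± 0.066 (adjusted p = 0.038), and was not called in null cells, at 0.16 ± 0.066 (adjusted p = 0.0595). The 3 arrays of each line were above those of flox cells, yet the call in null Eα cells was lost when null Eα replicate 1 or 2 or flox replicate 1 or 2 was left out, at 0.16 to 0.18.

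The features of a member mostly moved together. The 52 members had 203 features, and 37 members had more than 1. All features of a gene lay on the same side of 0 in 31 of the 37 for null against flox, in 31 for null Eα against flox and in 36 for null Eα against null. Some of these features repeat each other: 19 carried values identical to another, among them all 3 of Rpl41. Counting each set of identical values once left 191 features and 36 genes with several, of which 30, 30 and 35 were on 1 side. The median spread between the features of a gene was 0.16, 0.17 and 0.033 on the log2 scale in the same order. For Rps15 the 3 features differed by as much as 0.69 in null cells, and all were lower than in flox, from -1.84 to -1.15. Rps6 was split. The feature with the highest mean was higher in both lines, while the other 7 of its 8 features were lower, at -0.28 to -0.085 in null and at -0.23 to -0.037 in null Eα cells. Rpl10, Rps2 and Rplp1 also had features on both sides of 0 against flox in both lines. Feature numbers on this array follow the genome: 97.5% of the features of other genes had neighbours, 5 on each side in number order, that came mostly from the gene's own chromosome. That held for 53 of the 203 member features and for 24 of the 52 used, so 28 members were represented by a feature that was numbered among genes of another chromosome. For 48 members at least 1 feature was numbered at home, and the 4 without were Rpl29, Rpl37a, Rpl21 and Rpl7a. With the brightest home feature in place of the one used, 20 of 48 members rose and 20 fell in null Eα cells, 17 rose and 20 fell in null cells, and Rps6 was called lower in both, at -0.18 in null Eα and -0.22 in null cells. This choice of feature was added after the data had been seen.

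**Figure D2:**
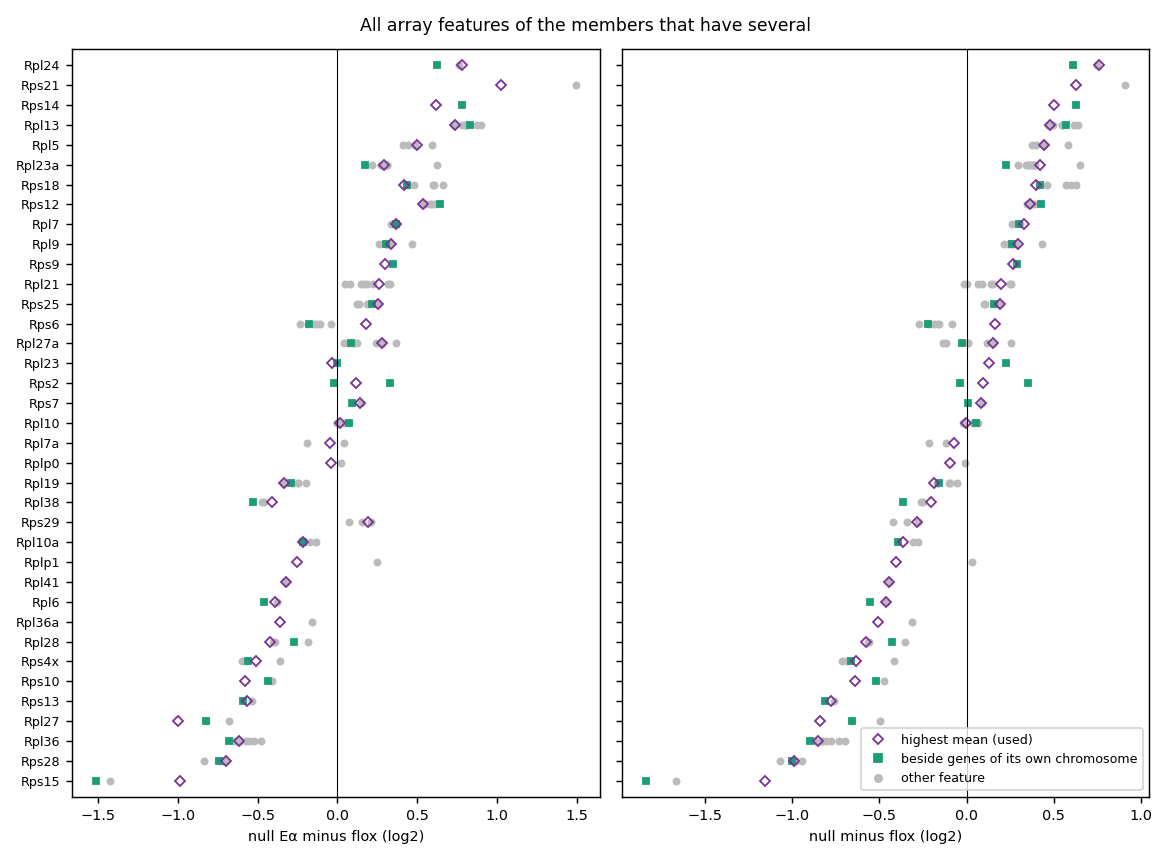
Each row is 1 of the 37 members with several array features and each symbol 1 feature, plotted as its log2 difference from flox in null Eα and in null cells. Open diamonds mark the feature used, squares the other features numbered beside genes of the member's own chromosome and grey points the rest. The used feature of Rps6 lies to the right of 0 and its other 7 features to the left.

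Between the 2 lines that both lacked β-catenin, fewer ribosomal protein genes were called than against flox cells, by a count that moved with the processing. In null Eα against null cells 8 of the 52 members were called higher and 0 lower by limma, while 44 were not called, and 4, Rpl19, Rpl23, Rpl27 and Rpl38, were lower at an unadjusted p under 0.05. That is 15.4%, beside 31.7% of all genes called, 13.6% higher and 18.1% lower, and beside 36.1% of the 302 other genes at a mean of at least 11. Of the 37 members at that level 5.41% were called. Of these, 20 were at 12 to 13, where 15.5% of all 58 genes were called, and 17 at 11 to 12, where 36.3% of all 278 genes were. All 19 small subunit members had positive differences, and 5 of them were called. In the large subunit 26 of 33 differences were positive and 3 genes were called. Of all 19938 genes 11497 had positive differences. The median of the members was 0.064, beside 0.049 over all genes and -0.072 over the other bright genes, and the 3 arrays of each group were apart for 28 members, beside 43.1% of all genes. With each array centred on its median, 6 members were called higher and 4 lower in place of 8 and 0. A trended and robust prior gave 16 higher and 5 lower, cyclic loess 15 higher and chromosome centring 19 higher. Leaving out null replicate 1 left 4 members called higher, and leaving out null replicate 2 or null Eα replicate 2 left 5.

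The members called between these lines were led by Rpl12, at 0.62 ± 0.14 (adjusted p = 0.0071), with the null arrays spread as given above. Its difference was 0.065 and not called once features of several symbols were admitted. Rps29, a zinc-binding protein of the small subunit's head, had 11.08, 10.95 and 10.99 in null Eα cells, 10.53, 10.43 and 10.64 in null cells and 10.80, 10.80 and 10.84 in flox cells. The null arrays lay below the flox arrays and the null Eα arrays above them. The difference from flox was -0.28 ± 0.076 (adjusted p = 0.00901) in null and 0.19 ± 0.076 (adjusted p = 0.0473) in null Eα cells, and between null Eα and null cells it was 0.47 ± 0.076 (adjusted p = 0.00108). The call between null Eα and flox cells held in 10 of 20 alternative settings, with adjusted p from 0.00346 to 0.243. Rps21 and Rpl37a followed, at 0.40 ± 0.078 (adjusted p = 0.00344) and 0.35 ± 0.070 (adjusted p = 0.00412). Rps28, Rpl13, Rps19 and Rps13 were higher by 0.30, 0.26, 0.26 and 0.21. For Rps28 and Rps19 the call was lost without null replicate 1 and also without null replicate 2. Rpl37a, Rps28, Rps19 and Rps13 were below flox in both lines and Rps21 and Rpl13 above flox in both, by the values given earlier. Rplp0, Rps6 and Rpl22 were at 0.052, 0.015 and 0.046 and were not called.

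**Figure D3:**
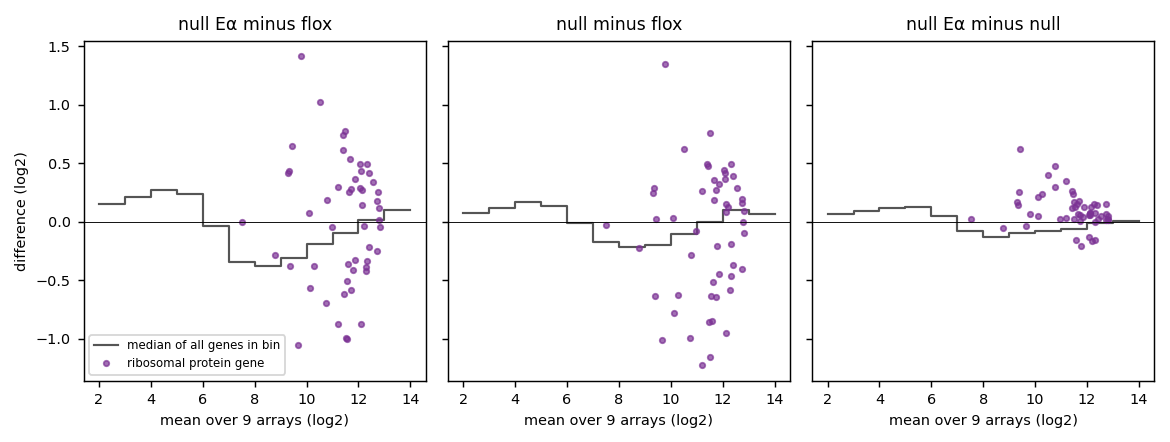
Each point is a ribosomal protein gene, with its mean over the 9 arrays on the horizontal axis and its log2 difference on the vertical axis, for null Eα minus flox, null minus flox and null Eα minus null. The stepped line is the median of all genes in each bin of 1 log2 unit. Members scatter widely on both sides of the line in the comparisons with flox cells and lie in a narrow band between null Eα and null cells.

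The small differences between null Eα and null cells had 1 sign on chromosome 11 and nearly always the other elsewhere. All 6 members on chromosome 11, Rpl19, Rpl23, Rpl23a, Rpl26, Rpl27 and Rpl38, had negative differences, from -0.21 for Rpl38 to -0.056 for Rpl26, with a median of -0.16. Of the 46 on other chromosomes 45 had positive differences, of which 8 were called, and the exception, Rpl34 on chromosome 3, was at -0.036. Positive differences were found for 11497 of all 19938 genes. Each of the 31 array features of the chromosome 11 members was negative, between -0.23 and -0.027, although only 7 of the 31 were numbered beside genes of that chromosome. They held 28 distinct sets of values. Of the 172 features of other members 170 were positive. The other genes of chromosome 11 moved the same way: the median over its brighter genes was -0.36, lower than on any other autosome except chromosome 6, at -0.44, where no member lies. It was -0.25 on chromosome 3 and -0.19 on the X chromosome, and on the remaining autosomes it was between -0.11 and -0.0098. None of the 6 members was called by limma in the main setting, while 5 of them, all but Rpl26, were called lower with a trended and robust prior and 4 with each array centred on its median. Cyclic loess and quantile normalization left 5 of 6 negative. Centring each chromosome removes the chromosome's own shift, which was larger than the difference of any of the 6. All 6 therefore became positive by construction, at 0.16 to 0.30, and the sign change is no result about them. The median of all genes moved to 0.14 with that scaling. Grouping the members by chromosome was chosen after their values had been seen, so it is a description. Against flox cells 5 of the 6 members were negative in null Eα cells, with a median of -0.31, and 4 in null cells, with a median of -0.20. The brighter genes of chromosome 11 had medians of -0.63 and -0.19 in the same order. Rpl23a was higher in both lines, at 0.29 in null Eα and 0.42 in null cells, and Rpl27, Rpl26 and Rpl19 were lower in both.

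**Figure D4:**
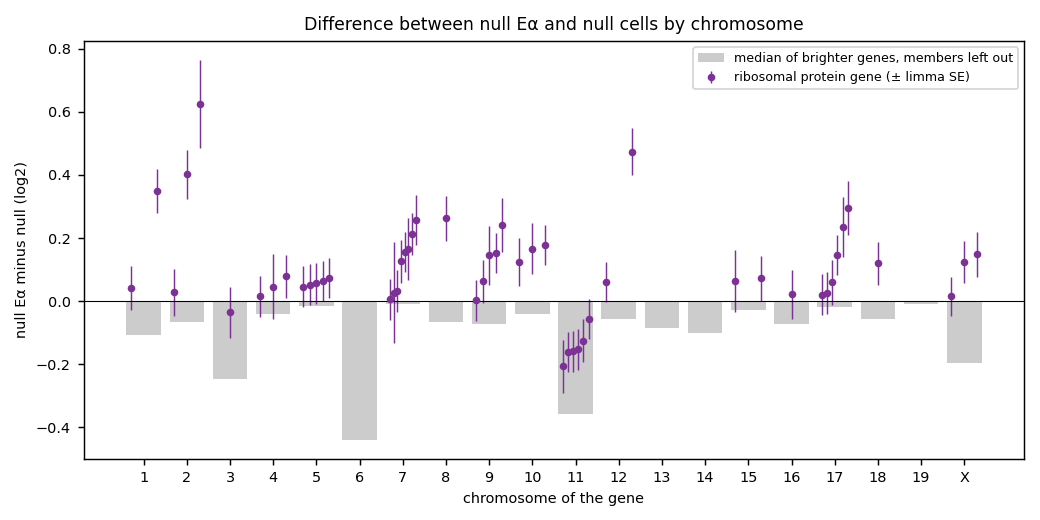
Points give the log2 difference between null Eα and null cells for each ribosomal protein gene with limma's standard error, placed by the gene's chromosome, and grey bars give the median of the brighter genes of that chromosome with the members left out. The 6 members on chromosome 11 lie below 0 and all others but Rpl34 on chromosome 3 lie above it.

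The annotated transcription starts of the members were searched for pyrimidine letters like those of a TOP tract. The windows printed below belong to some of the members with large changes and, for comparison, to 3 others that hold the letters. RefSeq promoter entries, on the build GRCm38.p6, were matched for 41 of the 52 members. Each line gives 15 bases before and 15 bases after the annotated start in lower case, 5′ to 3′ on the strand of the gene, with any match to CTTTT, to CTTTC or to CTTCC that lies from 5 bases before to 10 bases after the start in capitals.

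Rps15: cccggcagagctcgcgataactgcgcaagc
Rpl37a: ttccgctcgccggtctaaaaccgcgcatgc
Rpl34: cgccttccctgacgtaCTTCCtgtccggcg
Rps28: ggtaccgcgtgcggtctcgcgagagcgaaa
Rps21: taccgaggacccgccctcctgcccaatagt
Rpl24: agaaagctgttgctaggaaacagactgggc
Rpl4: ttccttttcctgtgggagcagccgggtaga
Rps6: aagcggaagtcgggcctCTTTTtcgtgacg
Rps10: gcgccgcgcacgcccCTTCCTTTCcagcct
Rplp2: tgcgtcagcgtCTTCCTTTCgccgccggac

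The windows of the members that fell most lie at chr10:80292416-80292445 on the plus strand for Rps15, chr1:72711245-72711274 on the plus strand for Rpl37a, chr3:130730384-130730413 on the minus strand for Rpl34 and chr17:33824548-33824577 on the minus strand for Rps28. Those of members that rose lie at chr2:180257364-180257393 on the plus strand for Rps21, chr16:55966260-55966289 on the plus strand for Rpl24 and chr9:64173372-64173401 on the plus strand for Rpl4. The window of Rps6 lies at chr4:86857353-86857382 on the minus strand, that of Rps10 at chr17:27635230-27635259 on the minus strand and that of Rplp2 at chr7:141447636-141447665 on the plus strand. Each spans the annotated start, so its second part belongs to the first exon. The 3 motifs may overlap each other, and 11 of the 41 members, or 26.8%, had at least 1 in the 15-base window, against 1879 of 27025 genes in the table, or 6.95%. On the opposite strand 3 of the 41 members, or 7.32%, had one, against 6.61% of all genes. In null cells against flox, 3 of the 16 matched members that fell, 1 of the 12 that rose and 7 of the 13 that were not called had the letters. Among the windows shown, those of Rpl34 and Rps10, which both fell, and of Rps6 and Rplp2 had them. Those of Rps15, Rpl37a, Rps28, Rps21, Rpl24 and Rpl4 did not. An annotated start that differs from the one used in these cells would move the searched window.

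Other genes of the ribosome were set beside the members. Rpsa and Fau encode 2 small subunit proteins whose symbols the rule does not take, and Fau joins its protein to a ubiquitin-like one. Rpsa rose by 0.57 ± 0.065 (adjusted p = 3.59e-05) in null Eα and by 0.34 ± 0.065 (adjusted p = 0.00118) in null cells, and Fau fell, at -1.04 and -1.26. The paralogs of ribosomal proteins, extra genes that in mice are often used in a few tissues such as testis, fell: of 6 measured of 10 listed, 5 were lower in null Eα cells, with a median of -0.66, and 6 in null cells, with a median of -1.47, beside 31.6% and 28.7% of all genes called lower. Rps4l had 10.37, 10.21 and 9.87 in null Eα cells, 8.38, 8.27 and 8.21 in null cells and 10.89, 10.90 and 10.89 in flox cells. It differed from flox by -2.60 in null cells, and it was higher in null Eα than null cells by 1.86 ± 0.12 (adjusted p = 3.17e-06). The features of Rps4l and Rpsa were numbered among genes of other chromosomes, so they too can take signal from processed copies. Rpl39l, a paralog of Rpl39, had 6.14, 6.52 and 6.17 in null Eα cells, 4.72, 4.67 and 4.78 in null cells and 6.70, 6.73 and 7.17 in flox cells. Its null values lay below the medians of those arrays, which were 5.98 to 6.00, and whether they were above background was not tested, so no size is given for its difference. Rpl3l, another of the paralogs measured, lay below the array median on every array. Both genes are part of the counts and medians of the paralogs. Rps27l, a paralog of Rps27 and a target of p53, fell, at -1.59 in null Eα and at -1.66 in null cells, and Rpl7l1 fell, at -0.98 and -1.29.

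Members known for other roles were counted in 4 groups, to be read beside the 32.1% of all genes called higher and 31.6% called lower in null Eα cells and the 26.5% and 28.7% in null cells. The shares between null Eα and null cells were 13.6% of all genes higher and 18.1% lower. Of the genes that host small nucleolar RNAs in their introns, 15 of 22 listed were measured, and 10 rose and 1 fell in null Eα cells, while 8 rose and 1, Rps20, fell in null cells and 2 were higher in null Eα than null cells. Of 18 genes mutated in Diamond-Blackfan anaemia in humans 9 were measured, of which 3 rose and 5 fell in null Eα cells and 1 rose and 6 fell in null cells, and 3 were higher in null Eα than null cells. Of the 3 proteins listed for binding Mdm2, Rpl5 rose in both lines and Rpl23 in neither, and neither was called between the lines. Of 4 X-linked genes 3 were measured, and Rps4x and Rpl36a fell in both lines, Rps4x at -0.51 in null Eα and -0.63 in null cells. These lists overlap and were chosen with earlier results of the data known.

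The ribosomes of mitochondria, built from a separate set of proteins that are imported into the organelle, were counted the same way. Of the 77 mitochondrial ribosomal protein genes 12 rose and 53 fell in null Eα cells, with a median of -0.50, and 12 rose and 47 fell in null cells, with a median of -0.46. Of all genes 32.1% were called higher and 31.6% lower in null Eα cells and 26.5% and 28.7% in null cells. Mrpl34 fell, at -2.58 in null Eα and at -2.81 in null cells. Mrpl36 had 9.03, 8.91 and 8.82 in null Eα cells, 7.24, 7.08 and 7.44 in null cells and 9.71, 9.65 and 9.73 in flox cells. It was lowest on the null arrays, and null Eα cells were higher than null cells by 1.67 ± 0.099 (adjusted p = 2.16e-06). Mrpl22 was at -2.28 ± 0.11 (adjusted p = 1.48e-07) in null Eα cells against flox and at -0.87 ± 0.11 (adjusted p = 3.30e-04) between null Eα and null cells. Its null Eα values of 5.99, 6.225 and 6.49 lay near the medians of those arrays, 6.02 to 6.06. Whether they were above background was not tested, so both sizes are uncertain. Mrpl22 lies on chromosome 11, whose brighter genes had medians of -0.63 and -0.36 in the same 2 comparisons. Between null Eα and null cells 16 mitochondrial genes were higher and 15 lower, with a median of 0.0022, beside 13.6% of all genes higher and 18.1% lower. Those lower included Mrpl10, Mrpl22, Mrpl27, Mrpl38, Mrpl45 and Mrps23 on chromosome 11 and Mrpl19, Mrpl35, Mrps25 and Mrps33 on chromosome 6. The brighter genes of these chromosomes had medians of -0.36 and -0.44. Mrps35 on chromosome 6 was called higher, and their other mitochondrial genes were not called. This grouping was made after the values had been seen.

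Factors that build ribosomes were called in both directions, as were all genes, of which 63.7% were called in null Eα and 55.2% in null cells and 31.7% between null Eα and null cells. Of 30 biogenesis factors 16 rose and 9 fell in null Eα cells and 15 rose and 10 fell in null cells, with medians of 0.25 and 0.21, and 6 were higher and 1 lower in null Eα than null cells. Rrs1, which brings the 5S particle to the large subunit, rose by 1.62 ± 0.11 (adjusted p = 9.41e-07) in null Eα and 1.79 ± 0.11 (adjusted p = 3.40e-07) in null cells. Tsr1, which binds the immature small subunit, rose by 1.16 in null cells, while Nob1, the nuclease that makes the final end of the small subunit's RNA, fell by 1.02 in null Eα cells. Between null Eα and null cells Rrp9 was higher by 0.53 and Nip7 by 0.42. Of 15 genes of the RNA polymerase I system, which transcribes ribosomal RNA, 3 rose and 6 fell in null Eα cells and 2 rose and 8 fell in null cells, and 9 were higher and 2 lower in null Eα than null cells. Ubtf, an activator that binds ribosomal DNA, fell, at -0.75 in null Eα and at -1.18 in null cells, and Polr1c, a polymerase subunit, fell as well, at -0.95 and -1.12. Between the lines Polr1a, the largest subunit, was at -0.91 and Rrn3, an initiation factor, at 0.59.

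Beside the same shares, other messenger RNAs with TOP tracts, for translation factors and the like, gave 3 higher and 6 lower of 12 measured of 14 listed in null Eα cells and 3 higher and 5 lower in null cells, and 1 higher and 1 lower between null Eα and null cells. Eef1b2, an elongation factor subunit, was at -0.93 in null cells and 0.44 between null Eα and null cells. Eif3e rose by 0.50 in null Eα and by 0.61 in null cells, Eif4b fell by 0.52 in null Eα cells, and Cct4, a chaperonin subunit, was at -0.25 between the lines. Of the initiation factors 18 of 22 were measured, and 8 rose and 6 fell in null Eα cells, 7 rose and 4 fell in null cells and 4 were higher and 0 lower in null Eα than null cells by limma, with 4 lower at an unadjusted p under 0.05 and 3 with a trended and robust prior. Eif3a, the scaffold of the Eif3 complex, rose by 1.15 ± 0.069 (adjusted p = 4.34e-07) in null Eα and 1.18 ± 0.069 (adjusted p = 2.46e-07) in null cells. Eif3i fell by 0.95 in null Eα cells and Eif3k fell by 1.13 in null cells, while Eif4e, which binds the cap, and Eif1a were higher in null Eα than null cells by 0.35 and 0.31.

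Genes of growth control, the Myc and mTOR routes known to act on ribosomal protein genes and their messenger RNAs, were called in 1 direction against flox. The list pools activators such as Mycn with repressors such as Eif4ebp1, so 1 shared direction does not show the activity of these routes. Of 16 measured of 17 listed, 0 rose and 14 fell in null Eα cells and 0 rose and 11 fell in null cells, with medians of -0.60 and -0.42, beside 31.6% and 28.7% of all genes called lower. None was higher against flox by limma at an unadjusted p under 0.05, nor with a trended and robust prior. Mycn had 10.47, 10.36 and 10.15 in null Eα cells, 8.51, 8.42 and 8.38 in null cells and 10.16, 10.19 and 10.13 in flox cells. The null arrays were below both other groups, whose arrays overlapped each other: Mycn fell by 1.72 in null cells, was at 0.17 ± 0.089 (adjusted p = 0.125) in null Eα cells and was higher in null Eα than null cells by 1.89 ± 0.089 (adjusted p = 4.55e-07). Myc had 8.10, 8.001 and 7.98 in null Eα cells, 9.02, 8.35 and 8.36 in null cells and 8.75, 8.67 and 8.64 in flox cells. It was lowest in null Eα cells, at -0.66 ± 0.16 (adjusted p = 0.00426) against flox, and it was at -0.11 ± 0.16 (adjusted p = 0.572) in null cells. Mlst8, a subunit of mTOR complexes, fell by 1.47 in null cells, and Eif4ebp1 and Eif4ebp2, repressors of Eif4e that mTOR switches off, fell, at -0.98 and -1.10 in null Eα cells. Larp1, the protein that binds TOP messenger RNAs and whose gene lies on chromosome 11, was lower in null Eα than null cells, at -0.67 ± 0.087 (adjusted p = 3.40e-04). Between those lines 2 genes of the list were higher and 4 lower, beside 13.6% of all genes higher and 18.1% lower.

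The mean of the 52 members was 11.39, 11.40 and 11.43 on the null Eα arrays, 11.28, 11.30 and 11.34 on the null arrays and 11.39, 11.40 and 11.43 on the flox arrays. The null arrays were lowest and the other groups overlapped. Outside the list, the genes whose values followed this mean most closely over the 9 arrays were Serac1, Ogdhl and Gm6578, with Pearson correlations of 0.98, 0.96 and 0.96. The 9 points share 3 groups and the arrays' scaling, so the correlations are descriptions.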

How the data were processed

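Total RNA from 9 samples, 3 each of null Eα, null and flox cells, was measured on whole-transcript arrays. The deposited table holds log2 values made by the authors with RMA, per the submitters' processing notes, for 35556 features. Genome build, probe filters and whether the arrays were normalized together are not given in the sources used here. Values were used as deposited, with 1 feature per gene (the highest mean over the 9 arrays among features with 1 symbol), which left 19938 genes. A single linear model with a mean for each group was fitted to the 9 arrays in limma 3.58.1 (R 4.3.3), by lmFit and then eBayes. It had 6 residual degrees of freedom and a prior of 4.04. The call required a p under 0.05 after Benjamini-Hochberg adjustment over all 19938 genes of a comparison. Values after ± are limma's standard errors. The labels do not say that replicates came from separate lines or cultures, so the p-values measure only the spread between these samples. The number of arrays limits the precision. The fit was tested on simulated data.

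The members and all gene lists were chosen with earlier results of these data known. Every member may be named. Array values are given for the 5 called members with the largest rises and the 5 with the largest falls in each comparison and for Rplp0, Rps6, Rpl22 and Rps19. In each other list, except the marker lists, which are given by counts and levels, the 2 called genes with the largest difference are named, with Ctnnb1, Myc and Mycn always, and genes added after their values were seen, Rpl7l1 and Rps4x among them, stand beside these. The lists cover both subunits, proteins outside the rule, paralogs, hosts of small nucleolar RNAs, Mdm2 binding, Diamond-Blackfan anaemia, X-linked genes, biogenesis factors, RNA polymerase I, other TOP transcripts, initiation factors, growth control and mitochondrial ribosomal proteins, and markers of embryonic stem cells, fibroblasts, trophoblast and endoderm. Of the 4 trophoblast markers 1 was higher and 1 lower in null Eα cells and 1 higher and 2 lower in null cells against flox, and of the 5 endoderm markers 2 were higher in null Eα cells, and 2 were higher and 1 lower in null cells.

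Alternatives were quantile and cyclic loess normalization, centring of arrays or of chromosomes, leaving out the dimmer genes, a trended and robust prior, only the groups compared, the mean of all features, features with several symbols, the feature numbered beside genes of its own chromosome (the home feature, added after the data were seen), a replicate block and leaving out each array. Same-numbered replicates correlated at -0.035 to 0.26 in their deviations from the group means, not every pair above 0.1, so they were not treated as pairs. Replicates of different number correlated at -0.20 to 0.14. Over all features null Eα replicate 3 correlated with the null arrays at 0.978 to 0.980, and null Eα replicates 1 and 2 at 0.964 to 0.970. Plots used matplotlib 3.10.9 (Python 3.11.15).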

Additional observations from a re-analysis of the deposited data

Results flagged for a closer look

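Rps29 stood out because its effects against flox cells differed between the lines. Its difference from flox was 0.19 ± 0.076 in null Eα cells (adjusted p = 0.0473) and -0.28 ± 0.076 in null cells (adjusted p = 0.00901), and the direct test between null Eα and null cells gave 0.47 ± 0.076 (adjusted p = 0.00108, limma). All 3 null Eα arrays were above and all 3 null arrays below the 3 flox arrays. The difference between the lines was called in all 20 alternative settings, at 0.42 to 0.56. The fall in null cells was called in 19 of them, and the rise in null Eα cells in 10. Both effects use the same flox arrays.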

How the results depend on the processing

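Counts against flox stayed within 1.5 times of those given except under chromosome centring, which left 11 members lower in null Eα cells. With 1 array left out, 21 to 23 members were higher and 21 lower in null Eα and 15 to 19 higher and 20 to 22 lower in null cells against flox, and 4 to 10 were higher and 0 lower in null Eα against null. Between null Eα and null cells, 15 members were higher with cyclic loess, 16 with a trended and robust prior, 19 with chromosome centring and 5 with only the groups compared. In the same comparison 4 were lower with array median centring, 2 with dim genes left out, 5 with a trended and robust prior, 1 with the mean of features and 1 with the home feature. The members' median in null Eα cells against flox was 0.12 with quantile normalization, 0.11 with cyclic loess, -0.038 with array centring and 0.31 with chromosome centring, and 0.016 to 0.12 without 1 array. In null cells against flox it was 0.069 with quantile normalization, -0.025 with array centring, 0.16 with chromosome centring and -0.030 with the home feature, and -0.018 to 0.059 without 1 array, the highest without flox replicate 2. Between null Eα and null cells it was 0.092 with quantile normalization, 0.13 with cyclic loess, 0.017 with array centring and 0.18 with chromosome centring, and 0.062 to 0.085 without 1 array. Against flox, Rps6 turned to -0.18 in null Eα and -0.22 in null cells with the home feature and to -0.10 and -0.14 with the mean of its features. Rpl12 turned to -0.46 in null Eα cells against flox with features of several symbols. Differences that were not called also changed sign: Rplp0 to 0.16 in null Eα and 0.090 in null cells against flox with chromosome centring, and, with array centring, Rpl22 to -0.0065 and -0.0061 against flox and -0.0005 between the lines and Rps6 to -0.032 between the lines. Without 1 array Rpl22 ran from -0.073 to 0.11 in null cells against flox and from -0.036 to 0.15 between the lines, and Rps6 from -0.0032 to 0.041 between the lines. With the replicate block 21 members were higher and 21 lower in null Eα and 18 higher and 21 lower in null cells against flox, and 8 were higher and 0 lower between the lines, and Rps6 and Rps29 lost their call in null Eα cells. Over the genes given by array, 690 of the recomputed values kept their direction and side of the threshold, 24 lost the call, 7 gained it and 16 changed sign, of which 3 had been called. The causes were not tested. With features of several symbols, 68 members were measured, 27 higher and 29 lower in null Eα and 23 higher and 29 lower in null cells. Precision was limited by 3 arrays per group, and signal from processed copies was not measured.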
